A study of Mus musculus with 8 samples.

Results

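The mitochondrial genome encodes a small set of respiratory chain proteins, and their messages are read by a translation system that stands apart from the one in the cytosol. Its soluble factors are encoded in the nucleus, made in the cytosol and imported. Skeletal muscle draws much of its energy from mitochondria, and inherited loss of Tufm, Tsfm or Gfm1 function is known to impair oxidative phosphorylation in tissues with a high energy demand. The factors described here were taken by name as 10 genes, which cover initiation (Mtif2, Mtif3), elongation (Tufm, Tsfm, Gfm1, Guf1), release and recycling (Mtrf1, Gfm2), the charging of a mitochondrial tRNA (Qrsl1) and the activation of a single message (Taco1). Their probes were found through the RefSeq accession that the array files give for each probe. All 10 genes were present among the 20660 genes named on the array, with 13 probes in all, since Gfm2, Guf1 and Mtif3 each had 2.

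Transcript levels were measured in gastrocnemius and tibialis anterior (TA), a calf muscle and a shin muscle, of male C57BL6 mice aged 8 to 16 weeks that carried 1 inactivated Eif6 allele (Eif6+/-), and of their wild-type (WT) littermates. Eif6 encodes a factor of the cytosolic ribosome that holds the large subunit away from the small one. Each of 8 Agilent arrays, 4 for each muscle, took the RNA of 1 Eif6+/- mouse in the Cy5 channel and that of 1 randomly paired WT mouse in the Cy3 channel. The series describes 4 mice of each genotype, and whether the same mice gave both muscles under the same pair number is not stated. The dyes were never swapped, so that dye and genotype cannot be told apart within a muscle, and all 8 arrays lay on 1 slide with each muscle in a line of 4, so that muscle and place on the slide cannot be told apart. In whole muscle, fewer cells of a type and less RNA per cell cannot be told apart either.

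The scanner files held 62976 spots per array and no saturated spot. The share of probes well above background on an array ran from 43.6% to 48.6% in the Cy5 channel and from 38.8% to 46.0% in the Cy3 channel. Precision is limited by the number of arrays. All 13 member probes were well above background in both channels of all 8 arrays, except that the dimmer Guf1 probe was so in 15 of the 16 channels. Every member was therefore tested in both muscles. The log2 ratios of the gastrocnemius arrays did not resemble each other evenly: across the probes kept in both muscles, pairs 1 and 2 correlated with r = 0.0112, whereas the other combinations of gastrocnemius pairs lay between 0.404 and 0.512 and those of TA between 0.156 and 0.514. Between arrays of different muscles r ran from −0.0344 to 0.653. Gastrocnemius pair 2 was closer to TA pairs 1 and 2 (r = 0.653 and 0.619) than to any other gastrocnemius pair (at most 0.454). The arrays thus did not group by muscle alone. Probes are not independent replicates. Of 9 genes that mark skeletal muscle fibres, 9 were tested in both muscles, and of 4 cardiac and liver genes only Myh6 was, as Alb, Apoa1 and Nppa were not well above background.

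Eif6 itself was measured first. Its brighter probe had log2 ratios of Eif6+/- over WT of −0.97, −1.14, −0.88 and −1.06 on gastrocnemius pairs 1 to 4 and of −1.22, −1.03, −0.96 and −0.80 on TA pairs 1 to 4. The means were −1.014 ± 0.113 (SD, n = 4 pairs, adjusted p = 0.0201) and −1.002 ± 0.174 (SD, n = 4 pairs, adjusted p = 0.0113), or 49.5% and 49.9% of the WT level, and its other probe gave −1.13 and −1.12. A probe is called here when its Benjamini-Hochberg adjusted p from limma, over all probes kept in the muscle, is under 0.1. With a pair left out the threshold was at times missed by the whole array: limma called 0 probes without gastrocnemius pair 3, 1 without gastrocnemius pair 4 and 0 without TA pair 1 (4243, 4434 and 3908 at an unadjusted p under 0.05). The mean of Eif6 was then −1.06, −0.998 and −0.929, with adjusted p of 0.116, 0.146 and 0.105, so that even its calls were lost. Where these probes lie relative to the inactivated part of Eif6 is not known here.

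The question put to each muscle was which of the mitochondrial translation factors differ between Eif6+/- and WT. In TA, transcripts of Tufm, Tsfm, Qrsl1 and Gfm2 fell in Eif6+/- muscle. These 4 calls, 1 probe of each gene, were 30.8% of the 13 member probes, beside 15.2% of all 23397 probes tested in TA that were called in either direction and 7.67% that were called lower. No member probe was called higher in TA by limma or by SAM, the permutation-based test that the study's methods name for these arrays. The only member probes with an unadjusted p under 0.05 (limma) were these 4, beside 6421 of all 23397 probes. As the genes were chosen with earlier results of these arrays known, the share of members called is a description. The median log2 ratio of the member probes in TA was −0.0232, against 0.000958 for all probes.

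Tufm and Tsfm work as a couple in elongation: Tufm encodes the mitochondrial elongation factor Tu, which brings charged tRNAs to the ribosome, and Tsfm encodes factor Ts, which reloads Tu with GTP. The log2 ratio of Tufm was −0.63, −0.36, −0.45 and −0.31 on TA pairs 1 to 4, with a mean of −0.44 ± 0.14 (SD, n = 4 pairs, limma standard error 0.0771, adjusted p = 0.0254). That of Tsfm was −0.45, −0.03, −0.29 and −0.48, with a mean of −0.31 ± 0.21 (SD, n = 4 pairs, limma standard error 0.0893, adjusted p = 0.0726). Tufm thus stood at 73.8% and Tsfm at 80.5% of the WT level, and all 4 pairs lay below 0 for both genes, though Tsfm was close to 0 on pair 2. Tufm was called with any pair left out but pair 1, without which its mean was −0.37 (adjusted p = 0.14). Tsfm was called only with all pairs or without pair 2 (adjusted p = 0.0834), and its adjusted p was 0.277, 0.135 and 0.15 without pairs 1, 3 and 4.

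Qrsl1 encodes the catalytic subunit of the amidotransferase that completes the charging of mitochondrial glutamine tRNA. Its log2 ratio was −0.47, −0.26, −0.17 and −0.44 on TA pairs 1 to 4, with a mean of −0.34 ± 0.14 (SD, n = 4 pairs, limma standard error 0.0772, adjusted p = 0.0447), or 79.2% of the WT level, and every pair lay below 0. The call of Qrsl1 was lost without pair 1 (adjusted p = 0.204) and without pair 2 (adjusted p = 0.107). Gatc and Gatb encode the other subunits of this enzyme. Gatc also fell in TA (−0.21 ± 0.0945, SD, n = 4 pairs, adjusted p = 0.0996), below 0 on all 4 pairs, and Gatb had a mean of −0.19 ± 0.178 (SD, n = 4 pairs, adjusted p = 0.18), below 0 on 3. Gatc was not called when any pair was left out (adjusted p from 0.15 to 0.321), and Gatb ran from −0.263 to −0.118 (adjusted p up to 0.515).

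Gfm2 encodes a second mitochondrial elongation factor G, which works with the recycling factor to take the ribosome apart after termination, and its probes disagreed. The brighter Gfm2 probe gave −0.41, −0.25, −0.42 and −0.06 on TA pairs 1 to 4, with a mean of −0.29 ± 0.17 (SD, n = 4 pairs, limma standard error 0.082, adjusted p = 0.0724). The other, which the files assign to a different Gfm2 transcript, gave 0.15, 0.27, −0.08 and 0.33, with a mean of 0.17 ± 0.18 (SD, n = 4 pairs, adjusted p = 0.236). The call of Gfm2 therefore belongs to 1 of its 2 probes, and the other lay above 0 on 3 of 4 pairs. That call was lost without pair 1, 2 or 3 (adjusted p of 0.273, 0.159 and 0.181).

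The other members were not called in TA, and their probes had means between −0.11 (Taco1) and 0.17 (the Gfm2 probe above). Taco1, which encodes an activator that translation of the cytochrome c oxidase subunit I message needs, lay below 0 on all 4 pairs, at −0.24, −0.05, −0.03 and −0.13 (mean −0.11 ± 0.095, SD, n = 4 pairs, 95% interval −0.28 to 0.05, adjusted p = 0.326). The mean of Taco1 was −0.0721 without pair 1 and −0.0287 with Agilent's processed signals. Gfm1, the elongation factor G of the translocation step, had a mean of 0.05 with a 95% interval of −0.15 to 0.26. The initiation factors were near 0, with Mtif2 at −0.00 (95% interval −0.19 to 0.18) and the brightest Mtif3 probe at 0.01 (95% interval −0.17 to 0.20). Mtrf1, a release factor, spread widely, from −0.36 on pair 3 to 0.21 on pair 1.

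**Figure D1:**
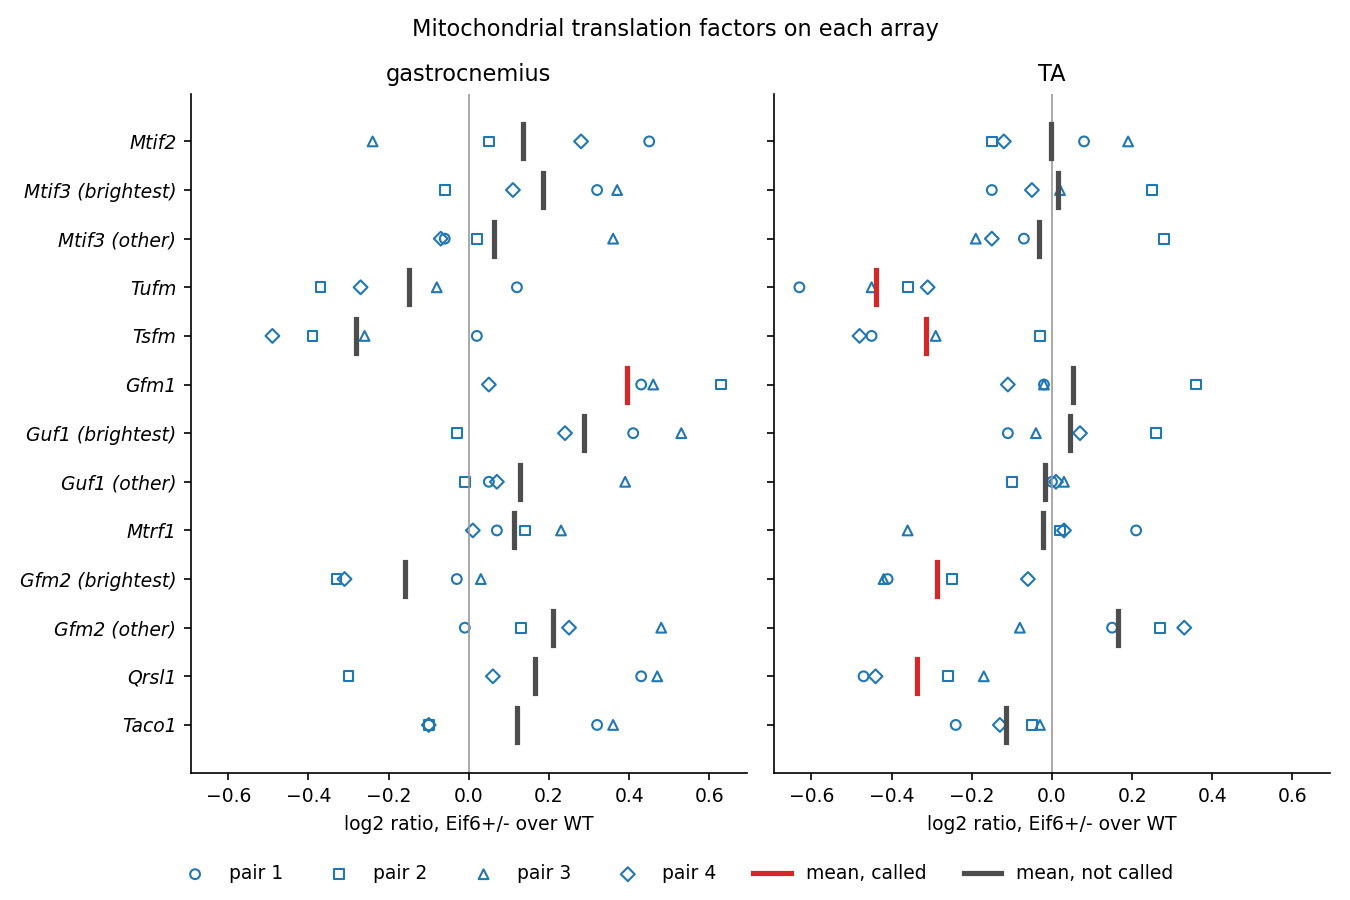
Log2 ratio of Eif6+/- over WT for the 13 member probes on the 4 arrays of each muscle, with a symbol per pair of mice and a vertical bar at the mean, red where limma called the probe. In TA the bars of Tufm, Tsfm, Qrsl1 and the brighter Gfm2 probe lie between −0.44 and −0.29, and in gastrocnemius only Gfm1, at 0.39, is called.

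Since 4 of these genes fell together in TA, the start regions of their promoters are shown with that of Gfm1, which was called in gastrocnemius. RefSeq promoter sequences (build GRCm38.p6) were given for 8 of the 10 members, and each window shown runs from 170 bases before to 30 bases after the annotated start, 5′ to 3′ on the gene's own strand. The windows are chr7:126487185-126487384 (Tufm, plus strand), chr10:127030785-127030984 (Tsfm, minus strand), chr10:43901707-43901906 (Qrsl1, minus strand), chr13:97137767-97137966 (Gfm2, plus strand) and chr3:67429945-67430144 (Gfm1, plus strand). Capitals mark the motifs spelled out in the next paragraph, on either strand.
Tufm: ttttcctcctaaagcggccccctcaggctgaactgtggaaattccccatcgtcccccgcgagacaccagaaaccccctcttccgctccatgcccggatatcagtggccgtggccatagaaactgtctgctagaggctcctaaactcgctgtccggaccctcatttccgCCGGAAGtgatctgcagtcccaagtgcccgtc
Tsfm: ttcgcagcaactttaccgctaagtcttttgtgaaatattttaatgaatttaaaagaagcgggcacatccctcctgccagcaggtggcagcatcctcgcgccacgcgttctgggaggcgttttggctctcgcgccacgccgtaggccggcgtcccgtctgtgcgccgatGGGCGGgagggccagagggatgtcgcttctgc
Qrsl1: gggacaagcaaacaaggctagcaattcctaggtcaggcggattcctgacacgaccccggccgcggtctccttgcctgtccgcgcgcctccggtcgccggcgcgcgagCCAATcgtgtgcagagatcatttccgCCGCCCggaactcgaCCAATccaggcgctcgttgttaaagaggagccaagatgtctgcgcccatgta
Gfm2: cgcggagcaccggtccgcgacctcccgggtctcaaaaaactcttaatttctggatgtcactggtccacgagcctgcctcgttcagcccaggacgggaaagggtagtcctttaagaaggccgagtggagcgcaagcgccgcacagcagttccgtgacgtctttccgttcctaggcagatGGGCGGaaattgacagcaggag
Gfm1: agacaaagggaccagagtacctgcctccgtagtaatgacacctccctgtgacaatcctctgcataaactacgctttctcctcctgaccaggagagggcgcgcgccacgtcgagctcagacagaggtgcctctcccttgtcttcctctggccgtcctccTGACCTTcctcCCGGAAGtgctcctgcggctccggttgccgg

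The letters searched were those of motifs known from promoters of nuclear genes for mitochondrial proteins and from promoters in general: CCGGAAG (ETS family), TGCGCA (part of the NRF1 motif), AAGATGG (YY1), AAGGTCA (ERR receptors), GGGCGG (Sp1) and CCAAT. No motif overlaps another in these windows. The ETS letters lie across the start of Tufm and Gfm1, and Mtif2 holds them on both strands, so that 3 of the 8 members had them, beside 7.41% of all 32851 promoter windows of the same length. The Sp1 letters were found in Tsfm, Qrsl1, Gfm2 and Taco1 (32.0% of all windows), the CCAAT letters in Qrsl1 alone (29.0%), the YY1 letters in Mtrf1 (4.07%) and the ERR letters in Gfm1 (3.03%). The NRF1 letters were in none of the 8 windows and in 6.25% of all. No motif was therefore common to the 4 genes that fell in TA. The share of G and C was between 59.0% and 62.5% in the 5 windows printed, against a median of 54.0% over all windows, and 43.5% in that of Mtrf1. A match describes the letters of a window and is not a measured binding site.

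In gastrocnemius, Gfm1 rose in Eif6+/- muscle and no other member was called. Gfm1 had log2 ratios of 0.43, 0.63, 0.46 and 0.05 on pairs 1 to 4, with a mean of 0.39 ± 0.24 (SD, n = 4 pairs, limma standard error 0.103, adjusted p = 0.0668), or 131% of the WT level. This single call was 7.69% of the member probes, beside 14.1% of all 23806 probes tested in gastrocnemius that were called in either direction and 8.38% that were called higher, so that the share was near or below that of all probes. All 4 pairs of Gfm1 lay above 0, but pair 4 only barely. The call was lost when any single pair was left out (adjusted p of 0.112, 0.148, 0.22 and 0.146 without pairs 1 to 4). The call of Gfm1 was also lost with Agilent's processed signals (adjusted p = 0.137) and with a normexp offset of 0 (adjusted p = 0.102).

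Tsfm and Guf1 came next in gastrocnemius, in opposite directions and without a call by limma. Tsfm had 0.02, −0.39, −0.26 and −0.49 on pairs 1 to 4 (mean −0.28 ± 0.22, SD, n = 4 pairs, unadjusted p = 0.0219, adjusted p = 0.124), close to its mean in TA. Guf1 encodes a GTPase related to the bacterial elongation factor LepA. Its brightest probe had 0.41, −0.03, 0.53 and 0.24 (mean 0.29 ± 0.24, SD, n = 4 pairs, unadjusted p = 0.0255, adjusted p = 0.134), and its dimmer probe had a mean of 0.13 ± 0.18 (SD, n = 4 pairs). The dimmer probe was at 0.0409 without pair 3 and at 0.485 with Agilent's processed signals. Guf1 was called without pair 2 (adjusted p = 0.0789) and Tsfm without pair 1 (adjusted p = 0.063). SAM called Guf1 as well as Gfm1, and with 1 model over both muscles Gfm1, Guf1 and Tsfm were called, the last lower. Over the array, where limma tested 23806 probes, SAM called 5279 and the 1 model 5177. Limma called 2157 probes without pair 2 and 3098 without pair 1. The remaining members gave means between −0.16 for the brighter Gfm2 probe and 0.21 for the other, which again pointed in opposite directions.

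Several members were high on pairs 1 and 3 of gastrocnemius and low on pairs 2 and 4. Qrsl1 had log2 ratios of 0.43 and 0.47 on pairs 1 and 3, against −0.30 and 0.06 on pairs 2 and 4. Taco1 had 0.32 and 0.36, against −0.10 and −0.10, and the brightest Mtif3 probe had 0.32 and 0.37, against −0.06 and 0.11. Their means of 0.17, 0.12 and 0.19 stayed within this spread, with adjusted p of 0.47, 0.513 and 0.252 (limma, n = 4 pairs). Without pair 3 these means were 0.0638, 0.0399 and 0.124, and without pair 2 they were 0.321, 0.194 and 0.268. Over the 8 arrays the ratios of Guf1 and Mtif3 (r = 0.957), Taco1 and Qrsl1 (r = 0.931) and Taco1 and Tufm (r = 0.88) ran most closely together, and those of Mtif2 and Mtrf1 least (r = −0.314). These correlations describe 45 pairs of brightest probes over 8 arrays that share a slide. By array, 10 of the 13 member probes lay above 0 on gastrocnemius pairs 1 and 3, 5 on pair 2 and 8 on pair 4, and 3, 6, 3 and 4 on TA pairs 1 to 4.

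Of the markers of other cell types, the leukocyte genes were low on gastrocnemius pairs 1 and 3, and other lists followed other orders. On gastrocnemius pairs 1 to 4 the adipocyte median was −0.253, 0.0268, −0.287 and −1.03. The red blood cell median was 0.0219, −0.476, −0.688 and −0.183 there. The median log2 ratio of the 4 leukocyte genes tested in both muscles (Cd74, Lyz2, Adgre1 and Itgam) was −1.01 and −1.55 on gastrocnemius pairs 1 and 3, and −0.0704 and −0.0405 on pairs 2 and 4. Among the leukocyte genes tested in each muscle, 1 of 4 was called lower in gastrocnemius (Cd74, −1.09 ± 0.64, SD, n = 4 pairs) and 1 of 6 in TA (S100a9, −1.61 ± 1.08, SD, n = 4 pairs, −2.66 with Agilent's processed signals). S100a8 was tested in neither muscle. Of all named genes, 5.53% were called lower in gastrocnemius and 7.4% in TA, and 1 call among so few genes is a description. Connective tissue genes had medians of −0.238, 0.193, −1.32 and −0.00411 on gastrocnemius pairs 1 to 4 and of 0.056, −0.785, 1.41 and −0.28 on TA pairs 1 to 4, and none of 5 was called in either muscle, the largest means being those of Col3a1 in gastrocnemius (−1.22 ± 1.24, SD, n = 4 pairs, adjusted p = 0.111) and Col1a1 in TA (0.46 ± 1.81, SD, n = 4 pairs, adjusted p = 0.613). With a pair left out Col3a1 ran from −1.69 to −0.802, and it was called lower in 5 of 16 alternatives, among them SAM (adjusted p = 0.0469) and the fit without pair 2 (adjusted p = 0.0592). Col1a1 in TA was at −0.429 without pair 3. The part of these cells in the ratios of the members was not tested.

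In TA, where Tufm, Tsfm, Qrsl1 and Gfm2 fell, so did all 4 red blood cell genes (Hbb-bs, Hba-a1, Alas2 and Hbb-bt), 2 of 3 genes of myelinated nerve (Prx and Mbp, the latter by its brightest probe, with another at 0.33) and 2 of 4 endothelial genes (Tie1 and Pecam1), while 3 of 6 adipocyte genes rose (Cidec, Retn and Plin1). Mbp, at −0.214, was not called with any pair left out (lowest adjusted p = 0.117) and ran from −0.615 to −0.194 over the alternatives. The others included Hbb-bs (−1.30 ± 0.61, SD, n = 4 pairs), Prx (−0.44 ± 0.16, SD, n = 4 pairs), Tie1 (−0.49 ± 0.22, SD, n = 4 pairs) and Cidec (0.60 ± 0.53, SD, n = 4 pairs, 0.345 without pair 3). The median of the red blood cell genes was −0.69, −1.12, −0.747 and −0.374 on TA pairs 1 to 4, low on every pair. In gastrocnemius 1 of 4 red blood cell genes (Hbb-bs), 1 of 4 endothelial genes (Tie1, −0.54 ± 0.307, SD, n = 4 pairs) and 2 of 6 adipocyte genes (Cfd, −0.89 ± 0.737, SD, n = 4 pairs, −0.575 without pair 4, and Adipoq) were called lower. No nerve gene passed the threshold there (Mbp, the largest of 3, had a mean of −0.11 ± 0.263, adjusted p = 0.538, and −0.00568 without pair 2). Lep was tested in neither muscle. Hbb-bs (0.09) and Adipoq (0.01) in gastrocnemius, and Retn (−0.15) and Plin1 (−0.11) in TA, each had 1 pair on the other side of 0. Of all named genes, 10.3% were called higher and 5.53% lower in gastrocnemius, and 8.81% higher and 7.4% lower in TA. Of the fibre genes, Myh1 rose (0.95 ± 0.62, SD, n = 4 pairs) and Ckm fell (−0.37 ± 0.177, called in 7 of 16 alternatives and at −0.152 with the deposited ratios) in gastrocnemius, Myh4 rose (0.80 ± 0.25, SD, n = 4 pairs) and Mylpf fell (−0.32 ± 0.194) in TA, and the other 7 of 9 were not called in each. Over the settings 0 to 4 fibre genes were higher and 0 to 2 lower in gastrocnemius (median 0.045 to 0.449). In TA 0 to 3 were higher and 0 to 1 lower (median −0.0422 to 0.2). With a pair left out the medians ran from −0.06 to 0.0969 in gastrocnemius and from −0.154 to −0.0173 in TA. Of the brown adipocyte genes Ucp1 was not well above background in either muscle, and Ppargc1a, a coactivator of mitochondrial biogenesis that muscle fibres also express, rose in gastrocnemius (0.33 ± 0.11, SD, n = 4 pairs) and had a mean of −0.20 in TA (adjusted p = 0.165, −0.113 without pair 3). The other Ppargc1a probe was at 0.08 in gastrocnemius and 0.0 in TA. Cidea, the other brown adipocyte gene tested, was not called in either muscle. The median of Cidea and Ppargc1a was 0.368 in gastrocnemius and −0.173 in TA, and 0 to 2 of them were higher in gastrocnemius over the settings. Calls of these markers were lost with those of the whole array, as limma called 0 probes in TA without pair 1 and 0 in gastrocnemius without pair 3 (3908 and 4243 at an unadjusted p under 0.05). With a pair left out, the TA means of Hbb-bs (−1.59 to −1.16), Prx (−0.518 to −0.402), Tie1 (−0.562 to −0.388) and Cidec (0.345 to 0.755) kept their sign. The part of any of these cell types in the fall of the members was not tested.

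**Figure D2:**
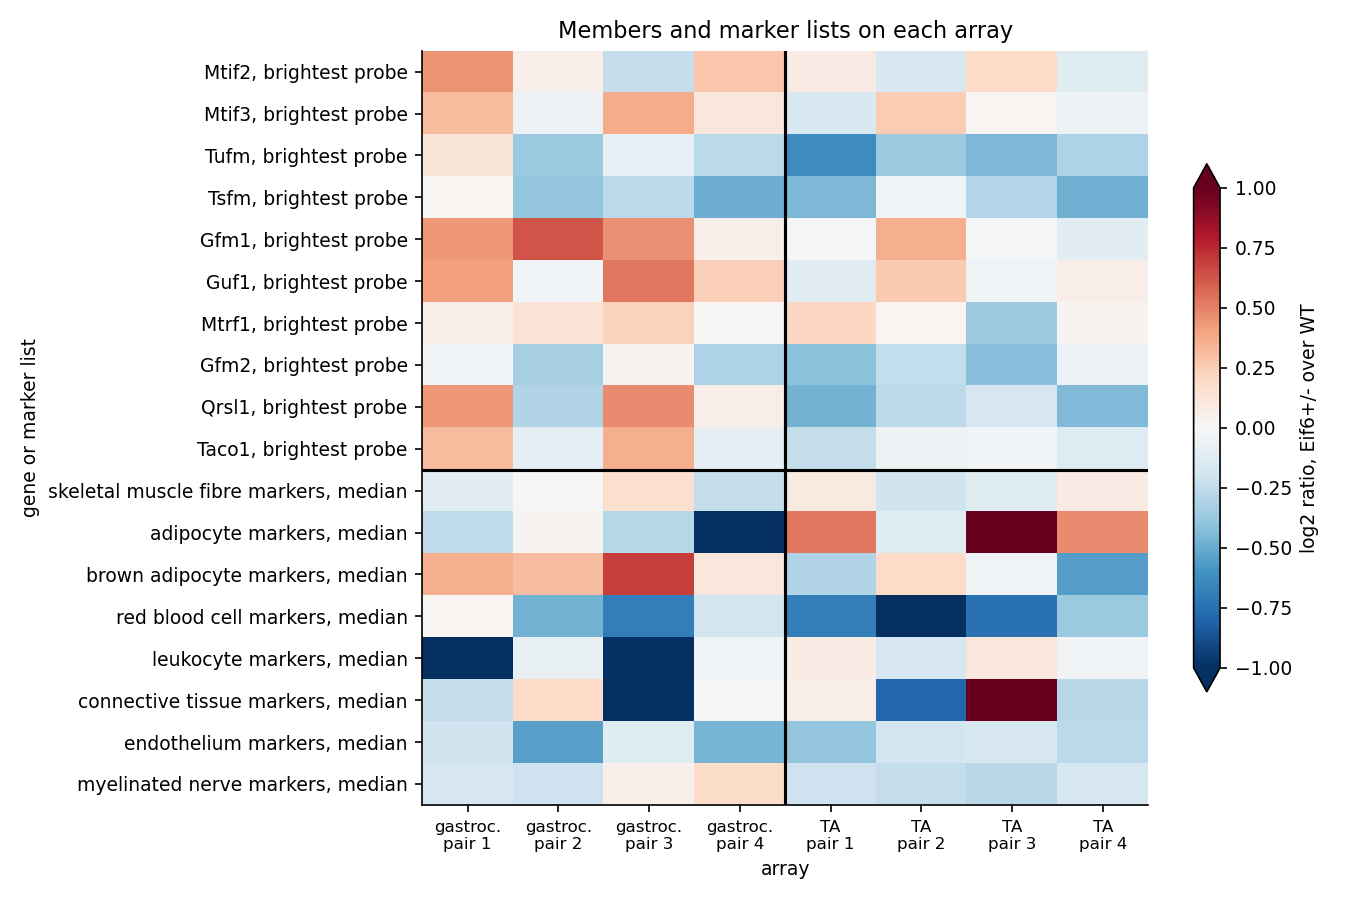
Log2 ratio of Eif6+/- over WT for the brightest probe of the 10 members (upper part) and median log2 ratio of each marker list (lower part) on the 8 arrays (columns), with colours that end at −1 and 1. Qrsl1, Taco1, Guf1 and Mtif3 are above 0 on gastrocnemius pairs 1 and 3, where the leukocyte median is −1.01 and −1.55. The adipocyte median is lowest on gastrocnemius pair 4, at −1.03.

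Whether the genotype effect differed between the muscles was tested directly over all 8 arrays. None of the 13 member probes was called, as no probe on the array was (0.0% of 22784, limma, with 1759 at an unadjusted p under 0.05). The largest member difference was that of Qrsl1, whose log2 ratio in gastrocnemius exceeded that in TA by 0.50 (95% interval 0.14 to 0.87, unadjusted p = 0.0117, adjusted p = 0.622). Gfm1 (0.34, 95% interval 0.03 to 0.66) and Tufm (0.29, 95% interval 0.01 to 0.56) also had an unadjusted p under 0.05, at 0.0364 and 0.0424. Without pair 1 the difference of Tufm was 0.13 (adjusted p = 0.826). The fall of Tufm and Qrsl1 in TA and the rise of Gfm1 in gastrocnemius are thus not shown to belong to 1 muscle. Tsfm differed least, by 0.03 (95% interval −0.27 to 0.34). With all pairs the 13 differences were above 0, with a median of 0.145 against 0.0184 over all probes. They were not all so without pair 1 (Tsfm at −0.114), without pair 3 (the dimmer probes of Gfm2 at −0.125 and Mtif3 at −0.0548, and Mtrf1 at −0.0162) or with the deposited ratios (the dimmer Gfm2 probe at −0.0122). Without pair 2 limma called 8 probes of the whole array, and none of them was a member probe (5 members at an unadjusted p under 0.05); with Agilent's processed signals it called 1.

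The level of each member was then compared between the muscles of the WT mice, in the Cy3 channel. Gfm1, Guf1 and Qrsl1 were lower in WT gastrocnemius than in WT TA. Their 4 probes, with both of those for Guf1, were 30.8% of the members, beside 18.5% of 22784 probes called in either direction and 11.8% called lower. The brightest Guf1 probe had normalized log2 WT levels of 7.39, 7.58, 7.31 and 7.48 in gastrocnemius and of 8.30, 7.93, 7.91 and 8.01 in TA, a difference of −0.60 (standard error 0.104, adjusted p = 0.00938). The other Guf1 probe also differed (−0.27, standard error 0.0778, adjusted p = 0.0551), by −0.59 with a normexp offset of 0, and was not called with pair number as a block (adjusted p = 0.114). Gfm1 had 12.16, 11.86, 12.14 and 12.33 in gastrocnemius and 12.69, 12.49, 12.56 and 12.67 in TA, a difference of −0.48 (standard error 0.105, adjusted p = 0.0202). Qrsl1 had 8.70, 9.02, 8.71 and 9.01 in gastrocnemius and 9.49, 9.24, 9.33 and 9.46 in TA, a difference of −0.52 (standard error 0.104, adjusted p = 0.0149). For these genes every WT gastrocnemius value lay below every WT TA value. Those calls held with each pair left out, except that of the dimmer Guf1 probe, which was lost without pair 2, 3 or 4 (adjusted p of 0.135, 0.233 and 0.142), and the count over all probes was 2561, 1305 and 2264 without those pairs, against 4211.

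The other members were not called between the WT muscles, and 12 of the 13 differences in all were below 0, with Mtif2 at 0.08 (95% interval −0.08 to 0.25) the exception. The brighter Gfm2 probe was at 0.06 without pair 1, and the dimmer Mtif3 probe at 0.03 without pair 3. The largest uncalled difference was that of the dimmer Gfm2 probe, at −0.31 (adjusted p = 0.129) and at −0.132 without pair 3. Tufm was at −0.29 (adjusted p = 0.173), Tsfm at −0.26 (adjusted p = 0.203) and Mtif3 at −0.23 for its brightest probe (adjusted p = 0.11), and without pair 1 at −0.0918, −0.134 and −0.136. The WT channel of each muscle enters this comparison, the ratios within each muscle and the difference between them, so that these are not independent of each other. Set side by side, the mean log2 levels of Qrsl1 were 8.86 ± 0.178 (SD, n = 4) in WT gastrocnemius, 9.03 ± 0.208 in Eif6+/- gastrocnemius, 9.05 ± 0.0774 in Eif6+/- TA and 9.38 ± 0.117 in WT TA. The middle values of that order lay within their spread of each other. Those of Tufm were 12.12 ± 0.109 in Eif6+/- TA, 12.13 ± 0.0885 in Eif6+/- gastrocnemius, 12.28 ± 0.226 in WT gastrocnemius and 12.56 ± 0.176 in WT TA. Between the muscles of the Eif6+/- mice, in the Cy5 channel, Tufm differed by 0.00 (95% interval −0.16 to 0.17), Qrsl1 by −0.02 (95% interval −0.24 to 0.20) and Gfm1 by −0.14 (95% interval −0.32 to 0.05), which are given as values without a call. The brightest Guf1 probe differed by −0.35 (95% interval −0.56 to −0.15) between the Eif6+/- muscles, still lower in gastrocnemius, the dimmer Gfm2 probe by −0.27 (95% interval −0.45 to −0.08) and Tsfm by −0.23 (95% interval −0.37 to −0.09).

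**Figure D3:**
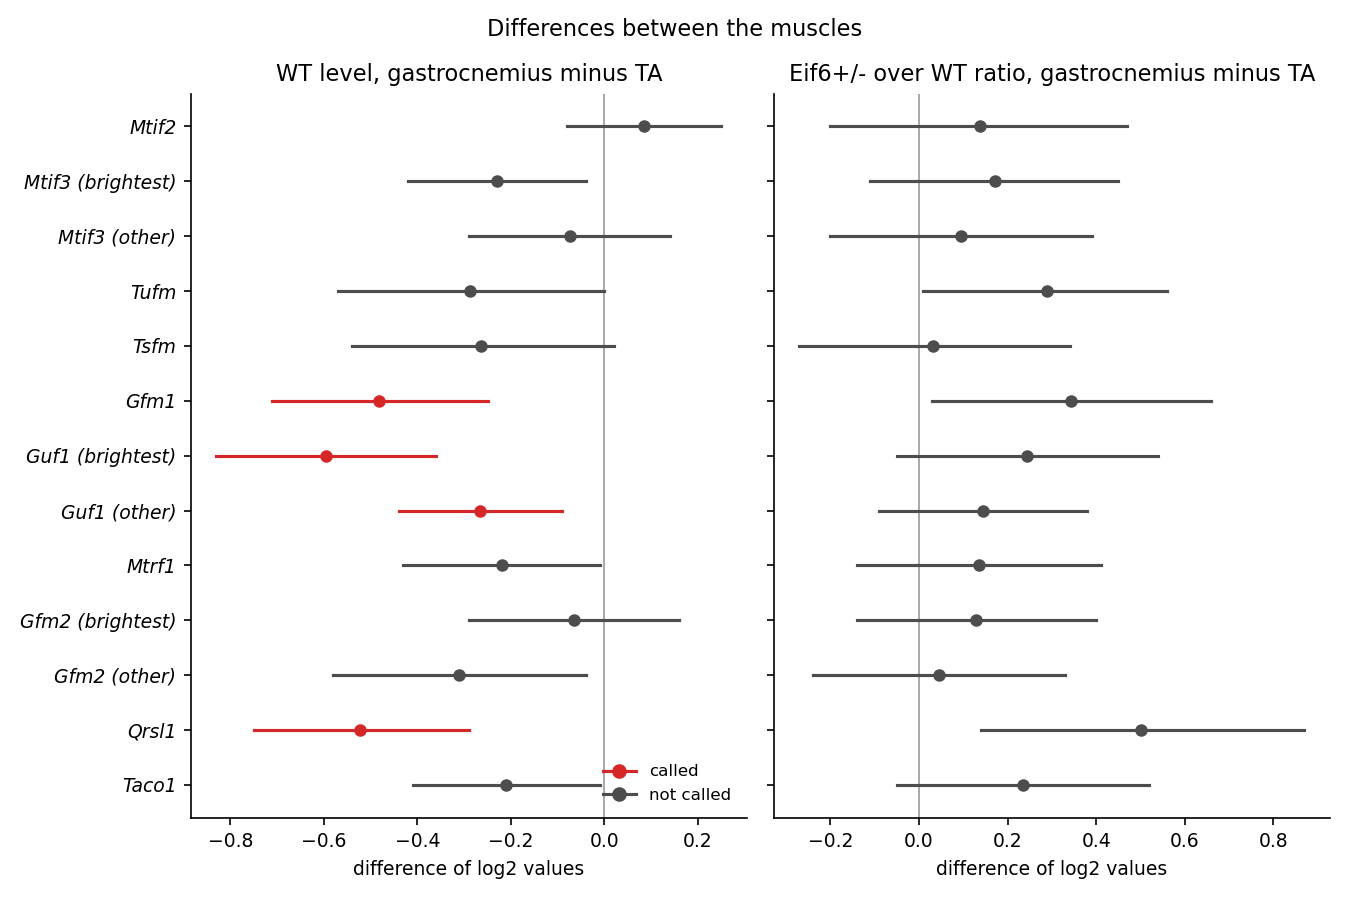
Difference between gastrocnemius and TA for each of the 13 member probes, as the log2 level in WT mice and as the genotype ratio (log2), with 95% intervals. The WT levels of Gfm1, Qrsl1 and both Guf1 probes lie between −0.60 and −0.27, and the 13 differences in the ratio lie between 0.03 and 0.50 with all pairs, with none called and 4 below 0 when pair 1 or pair 3 is left out (Tsfm without pair 1, Mtrf1 and the dimmer Gfm2 and Mtif3 probes without pair 3), as is the dimmer Gfm2 probe with the deposited ratios.

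The members were then set beside the other parts of the mitochondrial translation machinery, counted by the brightest probe of each gene. Of all named genes tested, 10.3% of 12608 were called higher and 5.53% called lower in gastrocnemius, and 8.81% of 12380 were called higher and 7.4% called lower in TA. By this count the 10 members had 1 higher and 0 lower in gastrocnemius (limma, 3 of the 13 probes at an unadjusted p under 0.05, 2 called by SAM and both higher) and 0 higher and 4 lower in TA. Over the array in gastrocnemius, 6241 of 23806 probes had an unadjusted p under 0.05 (limma). SAM called 5279 probes there, 3487 of them higher. Of the 10 other mitochondrial translation factors on the array, 5 were called in gastrocnemius, all higher, with a median of 0.256 against 0.0231 for all genes, and 1 rose and 1 fell in TA, with a median of 0.0776 (0.0213 to 0.138 with a pair left out) against 0.0174. Those that rose in gastrocnemius were Mtres1, which rescues stalled mitochondrial ribosomes (0.41 ± 0.17, SD, n = 4 pairs, adjusted p = 0.0455), Mtfmt, which formylates the initiator tRNA that Mtif2 receives (0.38 ± 0.271, SD, n = 4 pairs, adjusted p = 0.0839), and Oxa1l, which inserts new proteins into the inner membrane (0.38 ± 0.177, SD, n = 4 pairs, adjusted p = 0.0528). Mrrf, the recycling factor that works with Gfm2 (0.35 ± 0.209, SD, n = 4 pairs, adjusted p = 0.0712), and Mtrf1l, a release factor related to Mtrf1 (0.27 ± 0.0427, SD, n = 4 pairs, adjusted p = 0.0641), rose as well. The other probes of Oxa1l and Mrrf were at 0.14 and 0.04 in gastrocnemius. Mtfmt rose in TA too (0.31 ± 0.19, SD, n = 4 pairs, adjusted p = 0.0677), and Gatc, described with Qrsl1, was the gene that fell. Without a pair their adjusted p reached between 0.171 (Mtres1) and 0.274 (Mtfmt) in gastrocnemius.

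The proteins of the mitochondrial ribosome, which these factors serve, had 19 of 77 genes higher and 1 lower in gastrocnemius (median 0.177, 0.124 to 0.204 with a pair left out), against 4 higher and 10 lower in TA (median −0.0269, −0.0571 to −0.00679 with a pair left out). With a pair left out 0 to 16 were higher and 0 lower in gastrocnemius, and 0 to 6 higher and 0 to 6 lower in TA. Over the other settings 0 to 33 were higher and 0 to 2 lower in gastrocnemius. In TA those settings gave 0 to 5 higher and 0 to 12 lower. Of all named genes, 10.3% were called higher and 5.53% lower in gastrocnemius, and 8.81% higher and 7.4% lower in TA. Mrpl58, a ribosomal protein with release factor activity, is counted both here and among the other factors, and it was not called in either muscle. In gastrocnemius the named genes were Mrpl44 (0.52 ± 0.195, SD, n = 4 pairs), Mrps22 (0.52 ± 0.308) and Mrpl39 (0.49 ± 0.0945), which rose, and Mrps15 (−0.25 ± 0.099), which fell but was not called with any pair left out (lowest adjusted p = 0.106, called in 5 of 16 alternatives). In TA, Mrpl44 (0.41 ± 0.156), Mrpl27 (0.35 ± 0.173, its other probe at −0.19) and Mrps22 (0.31 ± 0.114) rose, and Mrps27 (−0.40 ± 0.255), Mrpl37 (−0.39 ± 0.225) and Mrpl28 (−0.33 ± 0.138) fell. Like the members, this list had more calls below 0 than above in TA, and like the other factors it had more above in gastrocnemius. The difference between muscles was not called for any probe of the array, so that no list is shown to behave differently in the muscles. Without pair 3 in gastrocnemius or pair 1 in TA, 0 genes of any list were called by limma (4243 and 3908 probes of the array at an unadjusted p under 0.05).

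A list drawn up around the stability of mitochondrial messages and the activation of their translation, the work of Taco1, had 3 of 18 genes higher in gastrocnemius (median 0.107, 0.0248 to 0.121 with a pair left out) and 2 higher and 4 lower in TA (median −0.144, −0.186 to −0.0793 with a pair left out). At most 2 were lower in TA with a pair left out. The counts in this paragraph stand beside 10.3% of all named genes called higher in gastrocnemius. In TA 8.81% of all named genes were called higher and 7.4% lower. Lrpprc, which binds and stabilizes mitochondrial messages, rose in both muscles (0.77 ± 0.133 in gastrocnemius and 0.33 ± 0.108 in TA, SD, n = 4 pairs each), and so did Fastkd5 (0.56 ± 0.183 and 0.41 ± 0.167), which takes part in processing mitochondrial RNA. Pnpt1 rose in gastrocnemius (0.38 ± 0.163), and Tbrg4 (−0.40 ± 0.0738), Letm1 (−0.23 ± 0.0336), Ptcd2 (−0.22 ± 0.0988) and Ndufaf7 fell in TA. Letm1, an ion exchanger of the inner membrane, and Ndufaf7, a methyltransferase for the assembly of complex I, have other main functions than the list was drawn up for. Letm1 and Ptcd2 were not called with any pair left out (lowest adjusted p = 0.127 and 0.145), and were called in 7 and 4 of 16 alternatives. Among the mitochondrial aminoacyl-tRNA synthetases, which charge tRNAs as Qrsl1 does for glutamine by another route, 2 of 18 were higher in gastrocnemius (Pars2, 0.40 ± 0.112, and Fars2, 0.29 ± 0.182, the latter not called with any pair left out, lowest adjusted p = 0.102). The share of 2 of 18 is near that of all named genes. Over the settings 0 to 7 synthetases were higher in gastrocnemius, with a median of 0.0392 to 0.141. In TA 1 was higher (Rars2, 0.37 ± 0.114) and 1 lower (Cars2, −0.33 ± 0.192), with medians of 0.0632 (0.0329 to 0.0991 with a pair left out) and −0.049 (−0.0836 to −0.0182) in gastrocnemius and TA. Enzymes that modify mitochondrial tRNA and rRNA had 6 of 25 higher in gastrocnemius (median 0.154), with Mrm1 (0.70 ± 0.181), Rpusd3 (0.49 ± 0.214) and Trub2 (0.45 ± 0.174) foremost. The other probes of Rpusd3 and Trub2 were at 0.31 and 0.01 there. In TA 2 were higher (Trmt5, 0.28 ± 0.147, 0.47 with Agilent's processed signals, and Tfb1m, 0.24 ± 0.102) and 2 lower (Nsun4, −0.28 ± 0.128, and Mrm3, −0.28 ± 0.156), with a median of −0.0117 that ran from −0.024 to 0.0219 over the settings and from −0.00385 to 0.016 with a pair left out. Mrm3 was not called with any pair left out (lowest adjusted p = 0.104, called in 6 of 16 alternatives).

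Genes for the assembly of the mitochondrial ribosome had 2 of 17 higher (Noa1, 0.36 ± 0.0902, and Mterf4, 0.27 ± 0.157) and 1 lower (Mpv17l2, −0.48 ± 0.166) in gastrocnemius, with a median of 0.0827. In TA 1 was higher (Mtg1, 0.25 ± 0.122) and 3 were lower (Mpv17l2, −0.30 ± 0.151, Eral1, −0.30 ± 0.247, and Mettl17, −0.22 ± 0.0534), with a median of −0.115. That median ran from −0.133 to −0.0596 over the settings and from −0.13 to −0.0825 with a pair left out. The 2 of 17 higher in gastrocnemius are near the 10.3% of all named genes called higher there, where 5.53% were called lower. In TA 8.81% of all named genes were called higher and 7.4% lower. Eral1 (−0.183 without pair 1) and Mettl17 were not called with any pair left out (lowest adjusted p = 0.104 and 0.132), and were called in 4 and 5 of 16 alternatives. The elongation and release factors of the cytosol, the counterparts of Tufm, Tsfm and Gfm1 outside mitochondria, had 2 of 15 called in gastrocnemius, both lower (Eif5a, −0.67 ± 0.276, and Eef1a2), with a median of −0.0787 (−0.066 to −0.0325 with a pair left out). In TA 1 was higher (Pelo, 0.26 ± 0.125) and 2 were lower (Eef1a2, −0.73 ± 0.555, −0.474 without pair 1, and Eif5a, −0.54 ± 0.316), with a median of 0.0325 (−0.00177 to 0.0386 with a pair left out). Eef1a2 encodes the elongation factor that adult muscle uses in place of Eef1a1, and does in the cytosol what Tufm does in mitochondria. The messages that the members translate could not be set beside them, as no probe was named for any protein that the mitochondrial genome encodes. As for all lists, these calls were absent without pair 3 of gastrocnemius and pair 1 of TA.

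**Figure D4:**
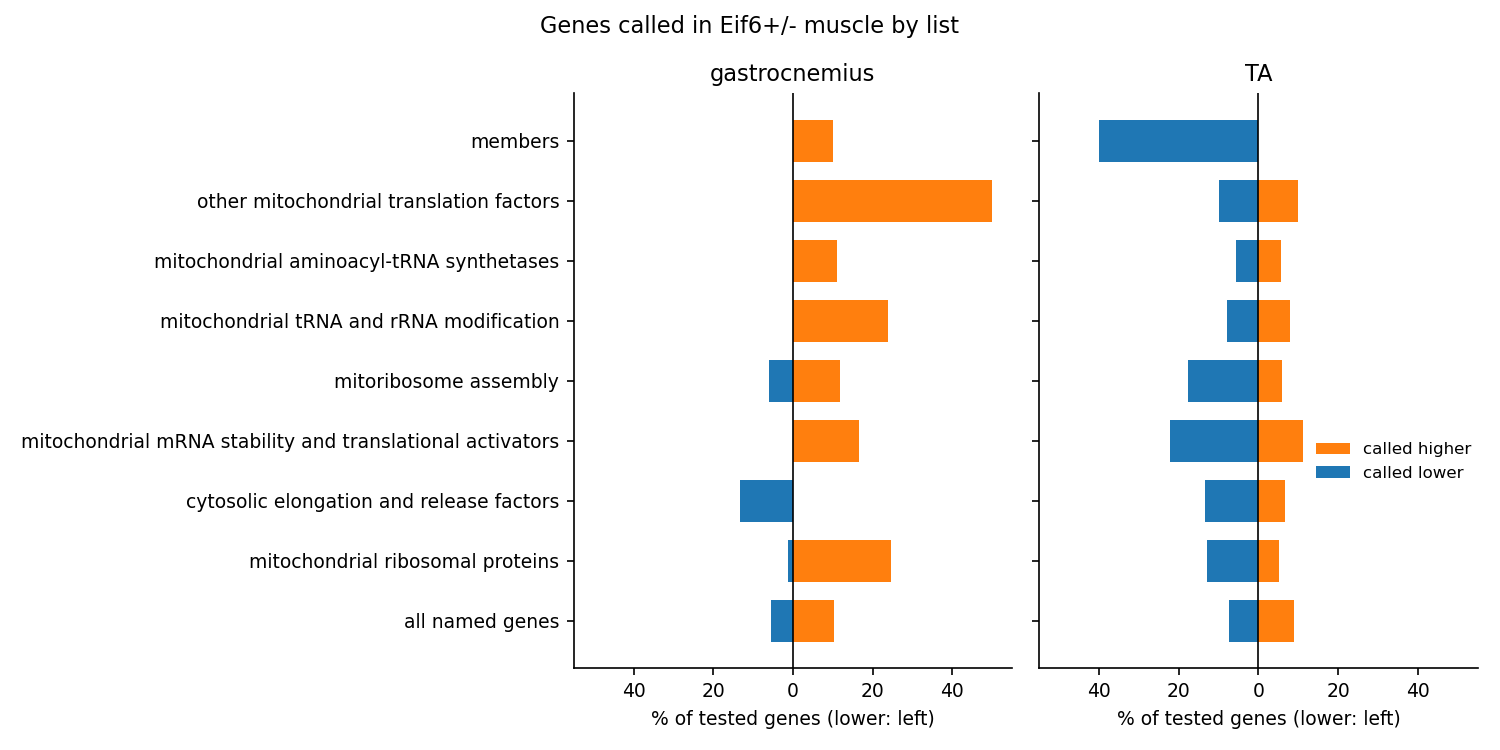
Percent of the tested genes of each list called higher or lower in Eif6+/- muscle (brightest probe of each gene), in gastrocnemius and TA, with all named genes as the last group. The members have 4 of 10 genes lower in TA and 1 of 10 higher in gastrocnemius, beside 7.4% lower and 10.3% higher of all named genes.

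For the members whose ratio varied most over the 8 arrays, Qrsl1, Gfm1 and Mtif2, the genes with the most similar ratios were sought among 12194 others. Qrsl1 ran with Mpc2, a subunit of the mitochondrial pyruvate carrier, with Chkb, a choline kinase, and with As3mt, an arsenite methyltransferase (r = 0.976 for each over 8 arrays). Of these, Chkb (−0.35) and As3mt (−0.28) were called lower in TA. Gfm1 ran with Gcnt2 (r = 0.951), Osbpl11 (r = 0.941) and Thoc5 (r = 0.939), of which Osbpl11 rose in both muscles (0.45 and 0.27). Mtif2 ran with Csf3r (r = 0.971), Esr2 (r = 0.97) and Hccs (r = 0.962), none of which was called in either muscle. With so many genes and 8 arrays that share a slide, correlations of this size are a description. The genes were chosen by their ratios on these same arrays, so that a direction shared with the member is no separate support.

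Position on the genome was looked at last. Genes that lie within 1000 bases of a member without overlapping it numbered 7 by the gene table, and 5 of them were measured. Their adjusted p was 0.12 or more in both muscles (limma, 4 pairs each). Rtn4ip1, next to Qrsl1, had a mean of −0.23 ± 0.176 in TA (SD, n = 4 pairs, adjusted p = 0.12), below 0 on all 4 pairs as Qrsl1 was, and 0.14 ± 0.224 in gastrocnemius. Atxn2l, next to Tufm, had 0.07 ± 0.0824 in TA, above 0 on all 4 pairs, where Tufm was below 0 on all 4, and the difference was not tested.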

How the data were processed

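The authors deposited the output of the scanner software (Agilent Feature Extraction 10.5.1.1), with spot intensities that are not normalized, and a table of log2 ratios of Cy5 over Cy3. The deposited log2 ratios were loess-normalized within arrays from uncorrected intensities (their r with a loess run here was 0.999961 to 0.999996). Their medians on the gastrocnemius arrays were 0.00257, 0.000831, −0.00441 and 0.00375, and on the TA arrays 0.00138, −0.000366, 0.00288 and 0.00212. The methods name Cy3 labelling alone, the sample labels both dyes.

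Median intensities were corrected by normexp (offset 50), normalized by loess within arrays (control spots had weight 0) and then by quantiles over all channels of the 8 arrays. Control and outlier spots (233 to 318 per array) were left out and the spots of a probe averaged. Of 55681 probes, a muscle's tests took those that stood well above background on each of its 4 arrays, in Cy5 or Cy3 or both (23806 in gastrocnemius, 23397 in TA, 22784 in both). The test was that of limma 3.58.1 (R 4.3.3, lmFit and eBayes, two-sided) for a mean log2 ratio other than 0, with Benjamini-Hochberg adjustment over the tested probes and a threshold of 0.1, and the muscles were compared over all 8 arrays. Figures used matplotlib 3.10.9 (Python 3.11.15). The limma test was run on simulated ratios with each probe's own spread. A shift of 0.4 was called for 23 of 100 probes in gastrocnemius and 33 of 100 in TA. A shift of 1.0 was called for 86 and 93 of 100, with 6 and 12 false calls. A member that was not called is thus not shown to be unchanged.

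RefSeq accessions named 27235 of 28685 probes through a mouse gene table of build GRCm38.p6, used with these mm9 files for names, neighbours and promoter sequences only. The brightest probe of a gene is that of highest mean signal. The members and lists were chosen with earlier results of these data known. All probes of the members and Eif6 were named, and from each list up to 3 genes called higher and 3 called lower in each muscle by size, among those of the same sign on all 4 arrays, or where none was called the gene with the largest mean. Other called genes are named where a list had few, after their values were seen, as are Gatb, the motifs, the neighbours and the pairs of arrays described. As alternatives, the normalization was loess or quantile only, the background correction was left out or run with an offset of 0, and the signals were those processed by Agilent or the ratios of the authors. The filter on dim probes was dropped or asked of both channels, each pair was left out in turn, and the threshold was 0.05. The test was SAM, which the methods name for the arrays (implemented here from its description), a t-test, which they name in general, 1 model over both muscles, or a fit with pair number as a block.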

Additional observations from a re-analysis of the deposited data

Results flagged for a closer look

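In 60 groups of 4 values, those of each member probe and Eif6 probe, 1 had a value far from the others by a test of gaps that chance fails in about 1 of 20 groups. The dimmer Mtif3 probe had a log2 WT level of 7.76 in gastrocnemius pair 3, where the other 3 WT values lay between 8.04 and 8.09. Its log2 ratio on that array, 0.36, is the highest of its 4 in gastrocnemius.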

How the results depend on the processing

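No value changed direction with a call: among the alternatives for single probes, 1785 values kept their side of the threshold, 383 lost a call and 12 gained one. Tufm in TA was called in 14 of 16 alternatives (values −0.48 to −0.374, lost without pair 1 and with a t-test, adjusted p = 0.169, but called by SAM, the study's test for the arrays), Qrsl1 in 11 of 16, Tsfm and Gfm2 in 9 each and Gfm1 in gastrocnemius in 8. The WT differences of Gfm1, Qrsl1 and the brightest Guf1 probe were called in all 11. The cause of each change was not tested, except that a stricter threshold cannot give more calls.

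Called probes in gastrocnemius numbered 3352 (members 1). Members were 0 with normexp offset 0, Agilent's processed signals and a t-test, whose count over the array was 0 (4719 at an unadjusted p under 0.05). The counts over the array and of members were 5279 and 2 with SAM, 1211 and 0 at 0.05, and 5177 and 3 with 1 model over both muscles. In TA they were 3558 and 4, and became 2235 and 2 with offset 0, 1770 and 1 with processed signals, 5521 over the array without the filter, 13 and 0 with a t-test, and 1344 and 2 at 0.05. With loess alone 2158 of 3589 calls in TA were higher, against 1763 of 3558. Leaving out a pair gave 0 to 3098 (members 0 to 1) in gastrocnemius and 0 to 3471 (members 0 to 3) in TA.

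The difference between the muscles had 0 calls by limma (1759 at an unadjusted p under 0.05), 1 with processed signals, 1 without the filter, 0 with pair number as a block, and 0 to 8 with a pair left out, none a member. WT muscles differed at 4211 probes, at 2425 with 0.05, at 2898 (members 3) with the block and at 1305 to 3927 (members 3 to 4) with a pair left out. Between the same pair numbers in the muscles, r of deviations ran from −0.357 to 0.0899 in the ratios and from −0.377 to 0.192 in the WT levels. Signal over background limits the dim probes, here the dimmer Guf1 probe.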
